A study of Mus musculus with 4 samples.

Results

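Cdo1, Cyp2e1, Pam and Gdpd3 encode 4 enzymes of separate pathways, and their signals were lower in the soleus muscle of HSL-null mice. They were chosen by name among the probe sets annotated with exactly 1 gene symbol, because each was lower on all 4 pairings of an HSL-null with a wildtype array. Each gene had 1 probe set, so that the 4 genes are 4 of 12488 probe sets and 4 of 8252 named genes. The values of this contrast chose the genes and are therefore given as a description, with no test. HSL, or hormone-sensitive lipase, is encoded by Lipe and releases fatty acids from stored acylglycerols. Expression was measured on 4 arrays, HSL-null 1 and 2 and wildtype 1 and 2, from muscle of female mice aged 6 months. Both arrays of a genotype are technical duplicates of 1 pool of 5 mice, so the spread between duplicates measures array error and not variation between animals. The labels name neither the strain nor the disrupted part of the HSL gene. Lipe itself measured 16.2 and 19.4 on the HSL-null arrays, against 71.4 and 70.2 on the wildtype arrays.

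The enzymes act at different points of metabolism and secretion. Cdo1 is cysteine dioxygenase, an iron enzyme that oxidises cysteine to cysteine sulfinate and so opens the route to taurine and sulfate. It is abundant in liver and in adipose tissue. Cyp2e1 is a microsomal cytochrome P450 that oxidises ethanol, acetone and other small molecules, best known from liver. Pam is peptidylglycine alpha-amidating monooxygenase, a copper enzyme of secretory granules that converts glycine-extended peptides to amidated hormones. Gdpd3 belongs to the glycerophosphodiester phosphodiesterase family and acts as a lysophospholipase D, which releases lysophosphatidic acid. Adipoq, the adipocyte hormone adiponectin and not one of the 4, served as the gene of comparison.

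The promoters are shown because the 4 genes were lower together, and the RefSeq promoter table (GRCm38.p6) held Cyp2e1, Pam and Gdpd3, as well as Adipoq. It had no usable entry for Cdo1, whose promoter was not examined. Each window runs from 250 bases before to 50 bases after the annotated start. Capitals mark matches, on either strand, to TATAAA (the TATA box), CCAAT (the CCAAT box), GGGCGG (the GC box), TTGCNNAA (bound by C/EBP factors) or AGGTCA repeated after a gap of 1 base (bound by PPAR receptors). A match is a string of letters, not evidence of binding. Cyp2e1 lies at chr7:140763569-140763868 on the plus strand, Pam at chr1:98095597-98095896 on the minus strand, Gdpd3 at chr7:126766164-126766463 on the plus strand and Adipoq at chr16:23146286-23146585 on the plus strand.
Cyp2e1: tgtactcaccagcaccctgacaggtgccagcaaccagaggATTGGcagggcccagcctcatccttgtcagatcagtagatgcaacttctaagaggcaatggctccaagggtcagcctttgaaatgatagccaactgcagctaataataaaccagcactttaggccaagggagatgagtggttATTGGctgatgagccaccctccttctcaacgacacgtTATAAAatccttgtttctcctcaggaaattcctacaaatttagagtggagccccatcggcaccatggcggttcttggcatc
Pam: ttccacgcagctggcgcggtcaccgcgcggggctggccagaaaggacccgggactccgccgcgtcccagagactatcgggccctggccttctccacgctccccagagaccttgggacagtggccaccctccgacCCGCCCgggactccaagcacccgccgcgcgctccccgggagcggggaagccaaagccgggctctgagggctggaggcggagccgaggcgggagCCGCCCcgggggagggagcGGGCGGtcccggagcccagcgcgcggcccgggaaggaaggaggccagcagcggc
Gdpd3: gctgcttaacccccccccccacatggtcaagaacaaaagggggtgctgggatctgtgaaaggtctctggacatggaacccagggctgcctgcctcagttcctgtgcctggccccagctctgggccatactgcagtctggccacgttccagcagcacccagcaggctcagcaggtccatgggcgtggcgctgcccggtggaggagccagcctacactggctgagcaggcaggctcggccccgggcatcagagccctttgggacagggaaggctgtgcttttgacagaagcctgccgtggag
Adipoq: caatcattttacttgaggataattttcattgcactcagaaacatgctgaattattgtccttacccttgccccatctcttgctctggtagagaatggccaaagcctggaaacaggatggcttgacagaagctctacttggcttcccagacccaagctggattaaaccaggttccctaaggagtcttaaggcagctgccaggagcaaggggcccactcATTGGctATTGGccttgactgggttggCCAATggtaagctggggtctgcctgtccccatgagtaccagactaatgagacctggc

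The windows had little in common by these motifs. The Cyp2e1 window held TATAAA 31 bases before the start, a motif found in 13.6% of all 32851 promoter windows in the table. It also held CCAAT on the minus strand at 68 and 210 bases before the start. Adipoq held CCAAT at 34 and 27 bases before the start on the minus strand and at 7 bases on the plus strand. CCAAT occurs in 37.4% of all windows. The Pam window had no TATAAA and held 3 matches to GGGCGG, at 116 and 23 bases before the start on the minus strand and at 4 bases on the plus strand. GGGCGG occurs in 35.7% of windows. A second Pam start in the table held the same 3 matches. The Gdpd3 window matched none of the 5 motifs, which says only that these letters are not in this window. None of the windows of Cyp2e1, Pam, Gdpd3 and Adipoq held TTGCNNAA (10.8% of all windows) or the AGGTCA repeat (0.0396%), and no match overlapped another. Base composition differed too, at 76.3% G and C for Pam, 64.3% for Gdpd3 and 49.7% for Cyp2e1, against a median of 52.7% over all windows.

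Cdo1 had the largest fold among the 4. Its intensity, on a linear scale set to a common mean per array when deposited, was 15.4 and 14.0 on the HSL-null arrays, against 43.4 and 41.0 on the wildtype arrays. Both HSL-null arrays lay far below both wildtype arrays, and the closest values of the genotypes were 25.6 intensity units apart. The mean was 14.7 ± 0.990 in HSL-null and 42.2 ± 1.70 in wildtype (SD, n = 2 arrays each), 2.87-fold lower (log2 difference -1.52 ± 0.080, SE of the duplicates). Single pairs of arrays ranged from 2.66-fold to 3.10-fold lower. In muscle homogenate, fewer cells of a type and less RNA per cell cannot be told apart, here and for each gene that follows.

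The Cdo1 signal was also the dimmest of the 4 relative to its own arrays. It stood at percentile 37.8 to 39.7 of all probe sets in HSL-null and at percentile 57.9 to 58.4 in wildtype. The mean over the 4 arrays, 28.45, passed a filter set at the median of all probe sets (27.7) only through the wildtype arrays, since both HSL-null values lay below it. With low intensities floored at that median instead of at the 25th percentile (5.7), the HSL-null values were replaced by the floor and the log2 difference became -0.60, below the 1.5-fold separation described further on. Duplicates differed by 0.14 in HSL-null and 0.082 in wildtype (log2). Among the 622 probe sets nearest in level (1 of 10 equal bins), the SD of that duplicate difference was 0.40 in HSL-null and 0.42 in wildtype, so the duplicates of Cdo1 lay closer together than is usual at its level.

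Cyp2e1 was lower by less than Cdo1. It measured 57.8 and 63.3 in HSL-null, against 106.8 and 116.8 in wildtype. The genotypes did not overlap, with 43.5 units between the nearest values. The mean was 60.6 ± 3.89 in HSL-null and 111.8 ± 7.07 in wildtype (SD, n = 2 arrays each), 1.85-fold lower (log2 difference -0.88 ± 0.092). The weakest pair of arrays gave 1.69-fold and the strongest 2.02-fold. Among the 4, Cyp2e1 thus came closest to the 1.5-fold threshold.

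Pam showed nearly the same difference as Cyp2e1. It measured 70 and 75.9 in HSL-null, against 134.1 and 137.1 in wildtype, again with no overlap. The mean was 72.95 ± 4.17 in HSL-null and 135.6 ± 2.12 in wildtype (SD, n = 2 arrays each), 1.86-fold lower (log2 difference -0.90 ± 0.061). Pairs of arrays ranged from 1.77-fold to 1.96-fold lower, the narrowest range of the 4. Pam was also the brightest relative to its arrays, at percentile 68.0 to 69.2 in HSL-null and 78.9 to 79.3 in wildtype.

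Gdpd3 had the second largest fold and the largest SE of the duplicates among the 4. It measured 40.6 and 35.5 in HSL-null, against 83.2 and 107.9 in wildtype. Both HSL-null arrays were below both wildtype arrays, but the wildtype duplicates differed from each other by 0.38 on the log2 scale. In the bin of its level (618 probe sets) the SD of the wildtype duplicate difference was 0.27. The mean was 38.1 ± 3.61 in HSL-null and 95.6 ± 17.5 in wildtype (SD, n = 2 arrays each), 2.50-fold lower (log2 difference -1.32 ± 0.21). Pairs of arrays ranged from 2.05-fold to 3.04-fold lower. Without wildtype array 2 the log2 difference was -1.13, and without wildtype array 1 it was -1.51.

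**Figure D1:**
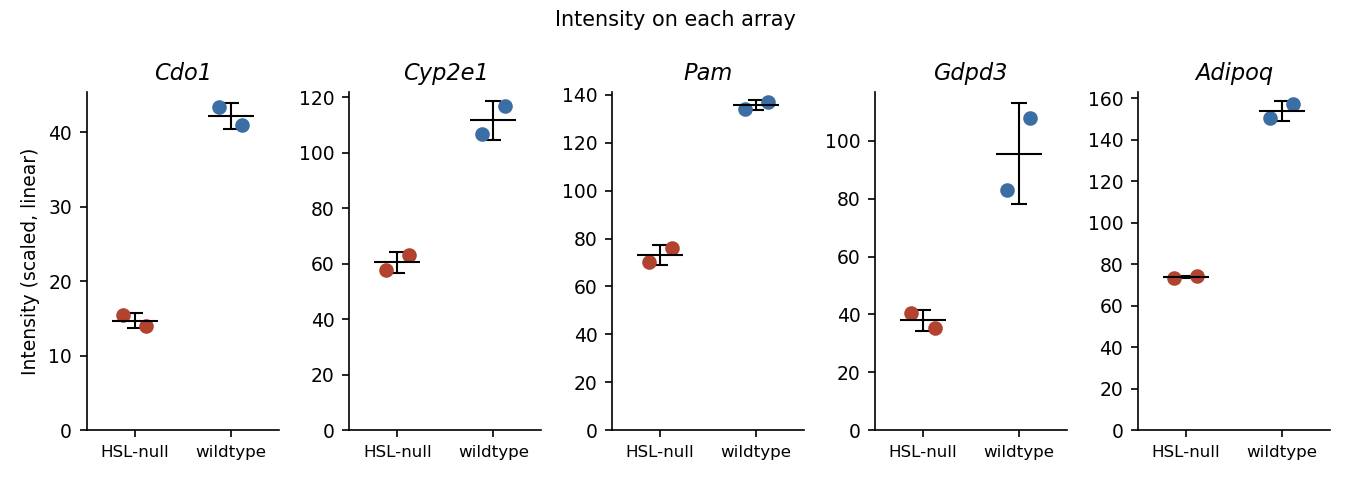
Intensity (scaled, linear, axis from 0) of Cdo1, Cyp2e1, Pam, Gdpd3 and Adipoq on the 2 HSL-null arrays (red) and the 2 wildtype arrays (blue), with the mean and the SD over 2 arrays. In every panel both HSL-null points lie below both wildtype points, and the wildtype duplicates of Gdpd3, 83.2 and 107.9, are the farthest apart relative to their mean.

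A probe set was called separated when every one of the 4 array pairs differed in the same direction by at least 1.5-fold. All 4 enzymes were separated lower, against 14 of 6208 probe sets above the filter (0.226%), but the choice of the genes used this contrast and nothing is read from the count. Lower on all 4 pairs by any amount were 1311 of 6208 probe sets (21.1%), so that this criterion alone admits many probe sets. By size of the difference, counted from the lowest of the 6208, Cdo1 was number 6, Gdpd3 number 7, Adipoq number 9, Pam number 15 and Cyp2e1 number 17. The median log2 difference of the 4 was -1.11, beside -0.0022 over all probe sets above the filter. Just inside the 1.5-fold threshold were Fkbp5, whose closest pair differed 1.53-fold, and Polb at 1.57-fold. Just outside were Inmt at 1.48-fold and Noct at 1.46-fold. At the edge of the sign criterion, Atp5d was inside with a closest pair of -0.00074 (log2) and Ercc2 outside at 0.

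**Figure D2:**
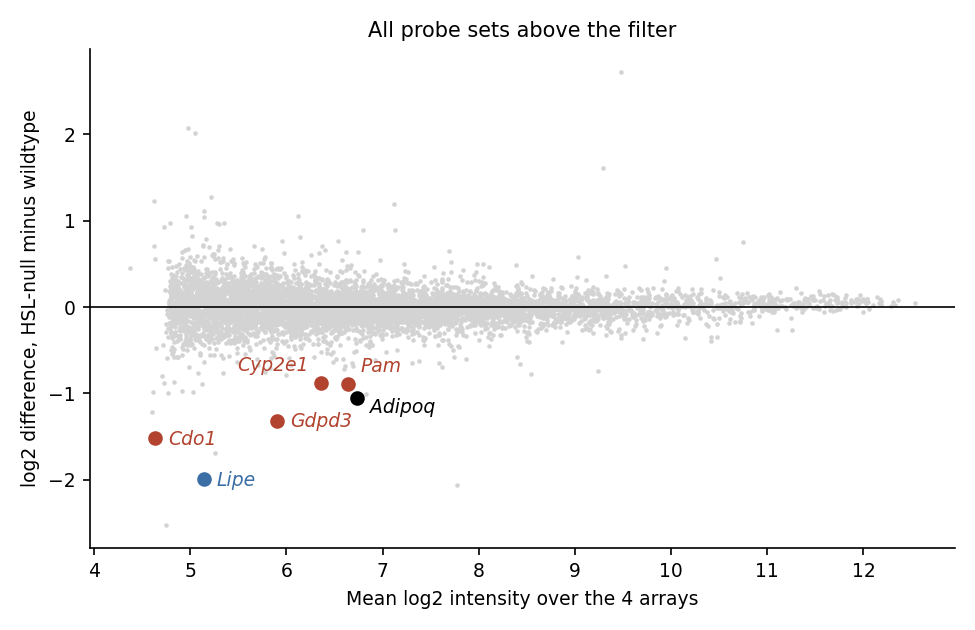
Difference in log2 intensity, HSL-null minus wildtype, against the mean log2 intensity over the 4 arrays for the 6208 probe sets above the filter (grey). The 4 enzymes (red) lie between -1.52 and -0.88, near Adipoq (black, -1.06) and above Lipe (blue), and Cdo1 sits at the dim edge of the plot.

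Adipoq measured 73.5 and 74.1 in HSL-null, against 150.2 and 157.2 in wildtype, a log2 difference of -1.06 ± 0.033. The difference of each enzyme was set against that of Adipoq through the log2 ratio of the pair of probe sets within each array. Cdo1 was lower than Adipoq by a further -0.46 ± 0.11 (SE of the duplicates, 1.38-fold), below 0 on 4 of 4 array pairs. With the floor at the median this value had the opposite sign, 0.46, because the HSL-null values of Cdo1 were then at the floor. Gdpd3 differed from Adipoq by -0.26 ± 0.19, with a closest pair of -0.0040. Cyp2e1 was lowered less than Adipoq, by 0.17 ± 0.068, and so was Pam, by 0.16 ± 0.055, each above 0 on 4 of 4 pairs. The distance from Adipoq was thus 4.42 times its SE for Cdo1, 2.95 times for Pam, 2.56 times for Cyp2e1 and 1.41 times for Gdpd3, with 2 arrays per pool and no test.

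Among the enzymes themselves, 6 pairs were compared. Cyp2e1 and Pam differed from each other by 0.011 ± 0.049, and the 4 array pairs lay between -0.045 and 0.067. Cdo1 was lower than Cyp2e1 by -0.64 ± 0.17 and lower than Pam by -0.63 ± 0.14, on 4 of 4 pairs each. Cdo1 and Gdpd3 differed by -0.20 ± 0.23, with 3 of 4 pairs below 0. Cyp2e1 stood above Gdpd3 by 0.43 ± 0.20 and Pam above Gdpd3 by 0.42 ± 0.23. From the lowest difference upward the order was Cdo1, Gdpd3, Pam and Cyp2e1. Neighbours in that order differed by less than 1 SE, except Gdpd3 and Pam at 1.83 times the SE. The place of Cdo1 depended on the floor. With the floor at the median Cdo1 came last in this order, and its differences turned to 0.29 ± 0.12 from Cyp2e1, 0.30 ± 0.082 from Pam and 0.72 ± 0.25 from Gdpd3.

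**Figure D3:**
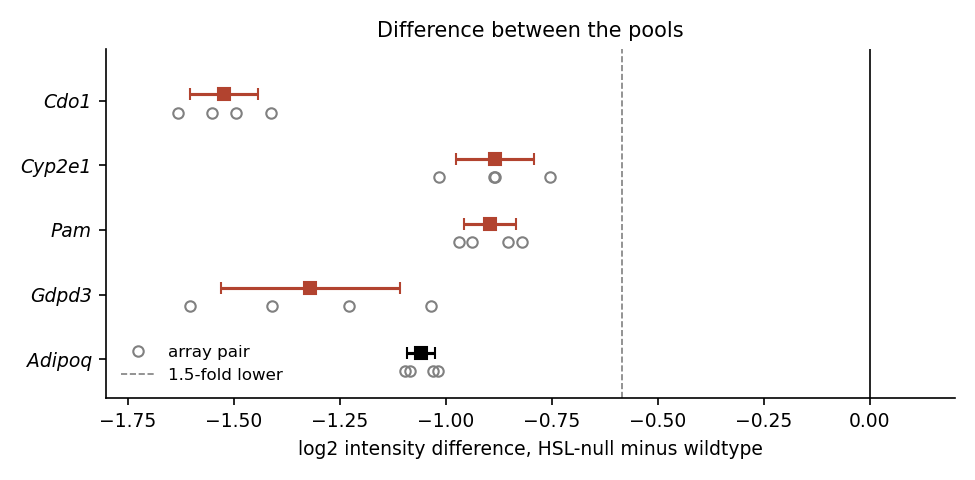
Difference in log2 intensity, HSL-null minus wildtype, for the 4 enzymes (red squares) and Adipoq (black square) with the SE of the duplicates, and the 4 single array pairs (open circles). The pairs of each gene lie to the left of the 1.5-fold line (dashed), and the pairs of Pam lie within the range of those of Cyp2e1, -1.01 to -0.75.

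The likeness of patterns was measured as the root mean square distance between the 4 log2 values of 2 genes, each centred on its own mean, over 4 arrays of 2 pools. Nearest to Cyp2e1 was Pam, at a distance of 0.035, followed by Scd1, the stearoyl-CoA desaturase of fat synthesis, at 0.087 and Adipoq at 0.099. Scd1 has a brighter probe set as well, which stands for it among the markers further on. The Scd1 probe set near Cyp2e1 measured 269.8 and 302.2 in HSL-null, against 500.9 and 479.6 in wildtype, and was separated lower. Nearest to Pam were Cyp2e1, again at 0.035, Scd1 at 0.069 and Adipoq at 0.090. For Gdpd3 the nearest were Adipoq at 0.19, Cdo1 at 0.19 and Fasn, the fatty acid synthase, at 0.21. Cdo1 was nearest to Ccne1, which encodes cyclin E, at 0.10, then to Gdpd3 at 0.19 and Adipoq at 0.24. Adipoq was thus among the 3 nearest named genes of each of the 4. With 1 pool per genotype the distance reflects mainly the size of the difference between pools, which also chose the genes.

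**Figure D4:**
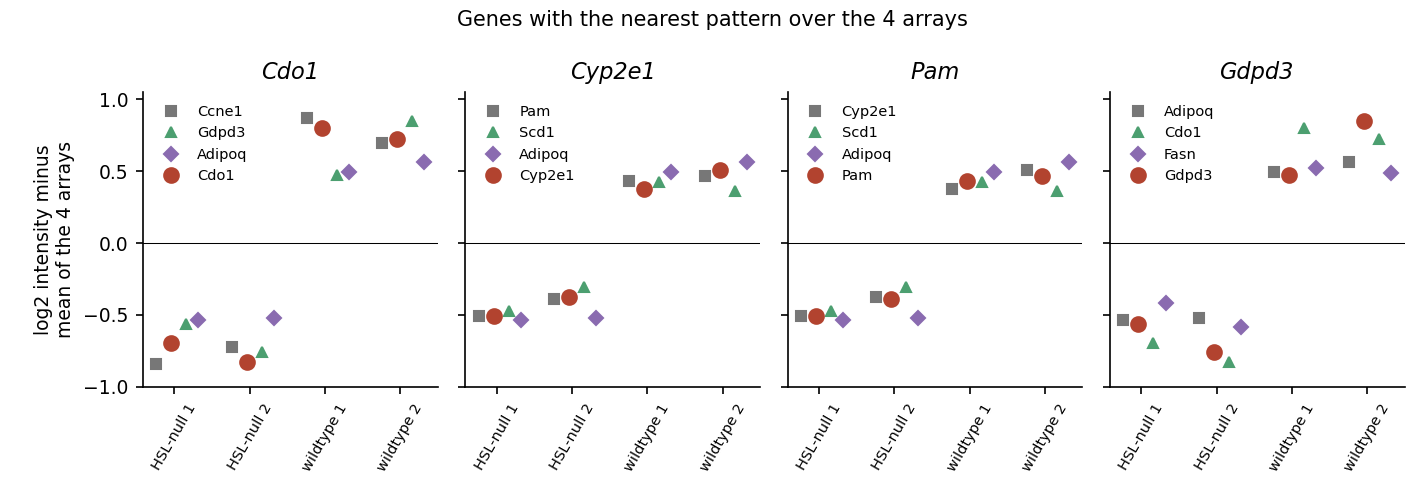
log2 intensity minus the mean of the 4 arrays, per array, for each enzyme (red circles) and its 3 nearest named genes (other symbols, spread sideways for clarity). The points of Cyp2e1 and Pam nearly coincide, at a distance of 0.035, while the distances of Gdpd3 from its neighbours reach 0.21.

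Cysteine and taurine metabolism, the pathway of Cdo1, showed no separated gene besides Cdo1. Of 33 genes listed, 26 had a probe set and 18 passed the filter. Of these, 1 was separated lower (background 0.247% of 4851 named genes), 0 higher (background 0.206%) and 17 neither. The 1 was Cdo1 itself, chosen from this contrast, and at these backgrounds nothing is read from finding no other. Lower on all 4 pairs were 7 of the 18, where the background was 21.5%. The median without Cdo1 was 0.020, beside -0.0041 over all named genes. Csad, the decarboxylase that follows Cdo1 on the way to taurine, measured 36.1 and 44.1 in HSL-null, against 39.9 and 38.7 in wildtype. Slc6a6, the taurine transporter, measured 249.2 and 317.6 in HSL-null, against 355.4 and 278.1 in wildtype. Neither gene kept the genotypes apart. Among those lower on all 4 pairs were Ahcy, which hydrolyses S-adenosylhomocysteine (-0.60 ± 0.23), and the glutathione genes Gsr (-0.28 ± 0.088) and Gss (-0.26 ± 0.087). Gclc (0.083 ± 0.23) and Gclm (0.085 ± 0.084), also glutathione genes, lay above 0 and overlapped between genotypes. All genes named here besides Cdo1 were chosen after their values were seen.

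Cyp2e1 was likewise the single separated gene among the P450 and detoxification enzymes. Of 61 P450 and partner genes 41 were on the array, and 31 lay below the filter, with mean intensities from 0.250 to 26.1. Of the 10 above it, 1 was separated lower (background 0.247% of named genes), 0 higher (background 0.206%) and 9 neither. The 1 was Cyp2e1 itself, and at these backgrounds nothing is read from finding no other. The median without Cyp2e1 was 0.038. The P450 genes above the filter beside Cyp2e1 were Cyp4b1 (-0.075 ± 0.19), Cyp21a1 (-0.043 ± 0.059) and Cyp2c39 (0.15 ± 0.73), none of them lower on all 4 pairs. Among 12 ethanol, acetone and epoxide enzymes, again 1 (Cyp2e1) was separated lower and 0 higher, against the same backgrounds. The median without Cyp2e1 was 0.060. Aldh2, the mitochondrial aldehyde dehydrogenase that acts after ethanol oxidation, measured 667.3 and 681.2 in HSL-null, against 703.5 and 665.9 in wildtype. Its arrays overlapped between genotypes. Cat, catalase, measured 394.6 and 453.6 in HSL-null, against 436.9 and 373.3 in wildtype, and overlapped too. The genes beside Cyp2e1 were chosen after their values were seen.

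Peptide processing genes gave no separated gene other than Pam. Of 23 listed genes, 19 had a probe set and 8 passed the filter. Of these, 1 was separated lower (background 0.247% of named genes), 0 higher (background 0.206%) and 7 neither. The 1 was Pam itself, and at these backgrounds nothing is read from finding no other. The median without Pam was 0.079. Cpe, carboxypeptidase E, which trims the peptides before amidation, measured 966.0 and 1043.0 in HSL-null, against 1003.9 and 899.0 in wildtype. Its genotypes overlapped. Higher on all 4 pairs were 2 of the 8 (background 19.7%), Pcsk7, a proprotein convertase (0.67 ± 0.17), and Chga (0.30 ± 0.15). Lower on all 4 were also 2 (background 21.5%), Pam and, by a small amount, Furin, another convertase (-0.092 ± 0.038). Cpe, Pcsk7, Chga and Furin were named after their values were seen. Of the 32 precursors of amidated peptides 7 were above the filter with 0 separated, and the brightest were Sct, which encodes secretin, at -0.18 ± 0.21 and Ppy, pancreatic polypeptide, at 0.075 ± 0.26. The median of those 7 was -0.24, with SEs up to 1.01 for Npy, neuropeptide Y. Among 14 copper enzymes and copper handling genes 1, again Pam, was separated lower and 0 higher, against the same backgrounds. Below 0 lay 11 of the 14, with a median of -0.14 without Pam, beside -0.0041 over all named genes. Lower on all 4 pairs were 4, Pam included (background 21.5%), and higher on all 4 were 2 (background 19.7%). Atp7a, the pump that loads copper into the secretory pathway, likewise named after its values were seen, measured 54.3 and 42.6 in HSL-null, against 48.8 and 58.6 in wildtype.

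Of the family of Gdpd3, 4 of 7 genes had a probe set and 2 passed the filter. Of these, 1 (Gdpd3) was separated lower (background 0.247% of named genes) and 0 higher (background 0.206%), and nothing is read from so few. Gpcpd1, which cleaves glycerophosphocholine, measured 167.4 and 180.5 in HSL-null, against 216.6 and 157.5 in wildtype (-0.088 ± 0.24), so that its genotypes overlapped while those of Gdpd3 did not. It was named after its values were seen. Of 12 genes of lysophospholipid and N-acylethanolamine metabolism above the filter, 1 (Gdpd3) was separated lower, 0 higher and 11 neither, against the same backgrounds. The median without Gdpd3 was 0.13. Lower on all 4 pairs were 4, Gdpd3 included (background 21.5%), and higher on all 4 were also 4 (background 19.7%). Chosen after their values were seen, Plpp1, a phosphatase that degrades lysophosphatidic acid, differed by 0.57 ± 0.034 and Lpar1, a receptor for it, by -0.26 ± 0.033.

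**Figure D5:**
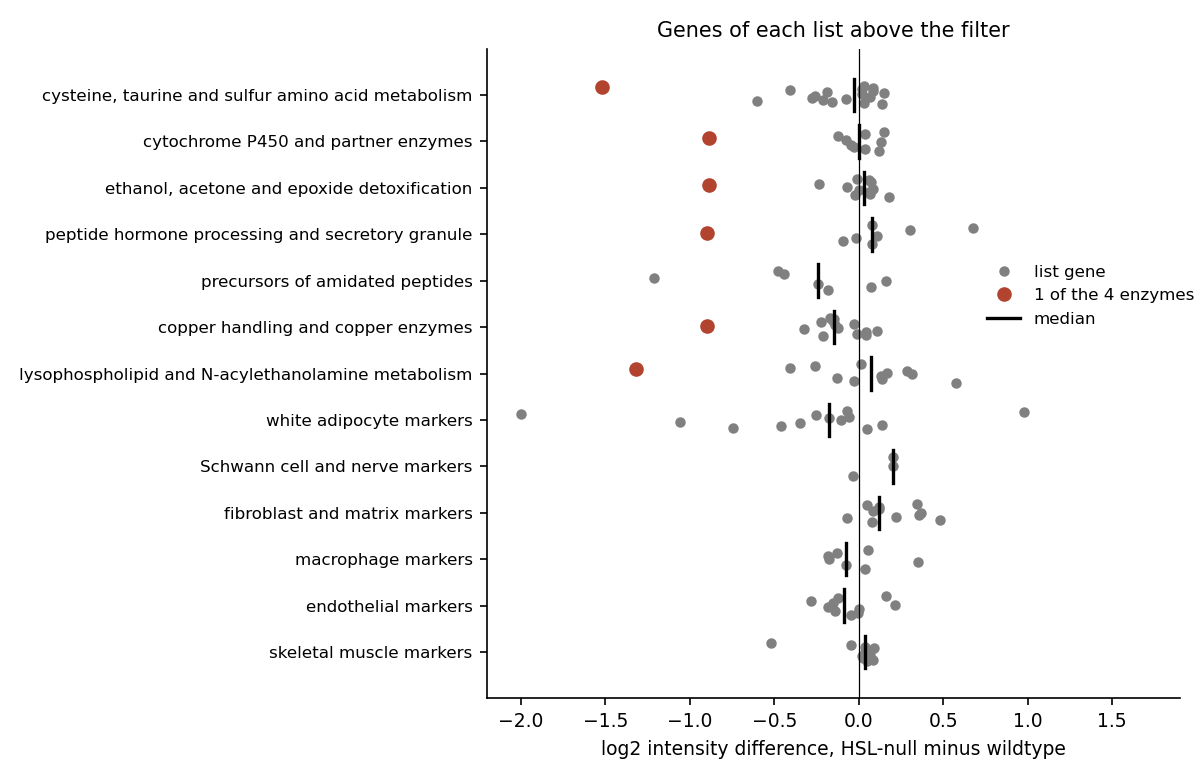
Difference in log2 intensity, HSL-null minus wildtype, of every gene above the filter in each list with at least 3 such genes (grey), with the list median (black bar) and the 4 enzymes in red. Cdo1, Cyp2e1, Pam and Gdpd3 stand at -1.52, -0.88, -0.90 and -1.32, each the lowest gene of its pathway lists, while the medians of those lists lie between -0.14 and 0.078.

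White adipocyte markers lay below 0 in their median, and their summed intensity was lower in HSL-null. Of 25 markers, 19 had a probe set and 13 passed the filter. Of these, 2 were separated lower (Adipoq and Lipe, background 0.247%), 0 higher (background 0.206%) and 11 neither. Lipe is the gene disrupted in HSL-null and Adipoq the gene of comparison set beforehand, so nothing is read from these 2. Lower on all 4 pairs were 7 of the 13 (background 21.5%), higher on all 4 were 2 (background 19.7%), and the median was -0.18. Lipe and Adipoq are included in the 7 and in the median. The 2 higher ones were Agt (0.98 ± 0.32) and Gpd1 (0.14 ± 0.11). Lep (-0.10 ± 0.21) and Cidea (-0.061 ± 0.24) overlapped between genotypes. Besides Adipoq, Lipe and Scd1, those lower on all 4 pairs were Npr3 (-0.46 ± 0.094), Cebpa (-0.35 ± 0.092), Thrsp (-0.25 ± 0.096) and Fabp4 (-0.18 ± 0.11). Agt, Gpd1, Lep, Cidea, Npr3, Cebpa, Thrsp and Fabp4 were named after their values were seen. The summed intensity of the 19 was 5005.5 to 5366.3 in HSL-null, against 5527.8 to 5737.5 in wildtype. Without Car3, which skeletal muscle expresses strongly itself, it was 1435 to 1563 in HSL-null, against 2015 to 2111 in wildtype. Without Car3, Lipe and Adipoq it was 1341 to 1474 in HSL-null, against 1793 to 1884 in wildtype. Most of that gap came from the brightest Scd1 probe set, which measured 521.5 and 420.7 in HSL-null, against 736.8 and 835.4 in wildtype. It is among the 11 called neither, and it is not the Scd1 probe set near Cyp2e1 and Pam described above. Without Scd1 as well, left out after its values were seen, the sum was 920.6 to 952 in HSL-null, against 1048 to 1056 in wildtype. None of the 19 was listed at 0 on any array. The part of adipocyte RNA in the values of the 4 enzymes was not tested.

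Hepatocyte markers, for the tissue best known for Cdo1 and Cyp2e1, were near the bottom of the scale. Of 17 on the array 15 lay below the filter, with mean intensities of 1.08 to 14.0, and their summed intensity with the other 2 was 188.5 to 220.2 in HSL-null, against 195.5 to 208.5 in wildtype. The other 2 were Hp, haptoglobin (-0.028 ± 0.31), and Ass1, argininosuccinate synthase (-0.051 ± 0.20). Of the other cell types, fibroblast and matrix markers had a median of 0.12 (9 of 11 higher on all 4 pairs, 0 separated, background for higher on all 4 pairs 19.7%), led in level by Dcn at 0.079 ± 0.020 and Col1a1 at 0.48 ± 0.050. Endothelial markers had a median of -0.085, with Eng at -0.047 ± 0.081 and Cdh5 at -0.0066 ± 0.059. Macrophage markers had a median of -0.075, with C1qc at 0.036 ± 0.21 and Lyz2 at -0.075 ± 0.059. For Schwann cell markers the median was 0.20 over 3 genes, among them Pmp22 at -0.032 ± 0.13 and Mbp at 0.20 ± 0.24. Skeletal muscle markers fitted the labelled tissue, with 11 of 12 above the filter, a median of 0.039, and Tnnt1 (0.048 ± 0.062) and Acta1 (0.083 ± 0.020) the brightest. None of the hepatocyte, fibroblast, endothelial, macrophage, Schwann cell and muscle lists had a separated gene, where the background was 0.247% lower and 0.206% higher. As for RNA quality, the 3′ to 5′ ratio of the beta-actin control was 0.819 ± 0.0053 in HSL-null and 0.697 ± 0.013 in wildtype, and that of Gapdh 0.917 ± 0.0072 in HSL-null and 0.941 ± 0.020 in wildtype (SD, n = 2 arrays each). The part of RNA quality in the results was not tested.

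Genes next to the 4 enzymes on their chromosomes were examined in the order of the RefSeq gene table. Taking 3 protein-coding neighbours on each side gave 24 genes, of which 10 had a probe set and none was separated. The background was 0.226% of probe sets lower and 0.226% higher, so nothing is read from finding none. Next to Cdo1, Eif1a gave -0.17 ± 0.24 and 0.34 ± 0.23 on 2 probe sets. Atg12, an autophagy gene, measured 112.7 and 111.3 in HSL-null, against 87.0 and 94.8 in wildtype. Tmed7 gave -0.12 ± 0.052 and 0.0086 ± 0.046 on 2 probe sets, and Ap3s1 -0.0068 ± 0.16. Next to Gdpd3, Ypel3 measured 334.7 and 340.0 in HSL-null, against 336.7 and 344.6 in wildtype, a difference of -0.014 ± 0.020. Farther out were Bola2 (-0.087 ± 0.11), Coro1a (0.21 ± 0.14), Ppp4c (0.19 ± 0.20) and Tbx6, which was below the filter. Atg12, the Eif1a probe set at 0.34, Coro1a and Tbx6 were higher on all 4 pairs (background 19.5% of probe sets above the filter). The Tmed7 probe set at -0.12 was lower on all 4 (background 21.1%). No neighbour of Cyp2e1 had a probe set among the named ones, and for Pam 1 did, Macir, which was below the filter.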

How the data were processed

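The deposited table holds 1 linear intensity per probe set and array. It was already scaled by the authors, tested on the values: the mean without the top and bottom 2% was 100.1 on every array. For the software, the background correction and the genome build the labels give nothing, and no detection calls were used. The platform annotation named the probe sets (10855 with 1 symbol, 396 with several, 1237 not listed), updated by gene ID for 10839 of them in a RefSeq table (GRCm38.p6). The 66 control probe sets were left out.

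Intensities were floored at the 25th percentile (5.7) and transformed to log2. The 6208 probe sets with a mean at or above 27.7 were kept, covering 4851 named genes. No test was made, since each genotype had 1 pool. Errors are SDs over 2 arrays or SEs from the duplicates, and the number of arrays limits the precision. The 15 gene lists (345 entries) represented each gene by its brightest probe set. The members, lists and rules were chosen with earlier results of these data known. In each list the separated genes were named, or where there were none the 2 brightest. Alternatives were 3 scalings (limma 3.58.1 in R 4.3.3 for quantile and cyclic loess), the floor, the filter, the threshold, leaving out each array, a block for the replicate number, and the mean over probe sets. Python 3.11.15, numpy 2.4.6 and pandas 2.3.3 were used.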

Additional observations from a re-analysis of the deposited data

How the results depend on the processing

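The 4 enzymes were chosen for being lower on all 4 array pairs. Leaving out arrays, using same-numbered pairs only or moving the floor could therefore not reverse their direction. Leaving out arrays or pairs could not undo a separation either, so these settings are no check on it. The direction held on every array pair kept under each of 10 alternatives, in 40 of 40 values, and 39 of these 40 stayed separated. The exception was Cdo1 with the floor at the median, where the log2 difference was -0.60 and the difference from Adipoq had the opposite sign, 0.46, as did its differences from Cyp2e1 (0.29), Pam (0.30) and Gdpd3 (0.72). The HSL-null values of Cdo1 lie below that floor. The other 39 of 40 differences from Adipoq moved by less than their SE, but most of this tally was fixed in advance. With duplicates, leaving out an array cannot shift such a difference by more than its SE. The replicate block, the lower floor and median centring leave a ratio within an array unchanged. Only quantile and cyclic loess scaling, and for Cdo1 the floor at the median, could move these differences further. With arrays left out, the log2 difference ranged from -1.59 to -1.45 for Cdo1, from -0.95 to -0.82 for Cyp2e1, from -0.95 to -0.84 for Pam and from -1.51 to -1.13 for Gdpd3. A 2-fold threshold separated 2 of the 4, and a filter at the 75th percentile kept 0 of them. The duplicates and the single pool per genotype limit all of these values.

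The count of probe sets separated lower, 14, was 8 at 2-fold, 109 at 1.2-fold, 55 without a filter and 5 with the filter at the 75th percentile. It was 36 to 54 with arrays left out, where only 2 pairs remain. Probe sets lower on all pairs numbered 748 with the filter at the 75th percentile and 2191 to 2265 with arrays left out. With the replicate number as a block, that is 2 same-numbered pairs in place of 4, 17 probe sets were separated lower, and the peptide processing list had 2 separated genes in place of 1. The differences are the same by construction, with SEs of 0.028 for Cdo1, 0.0010 for Cyp2e1, 0.042 for Pam and 0.28 for Gdpd3. Same-numbered arrays share only a number, and their deviations correlated at -0.086 across 6208 probe sets.

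List medians moved by less than an SE of the duplicates in 120 of 166 cases. That SE was computed from the median over list genes of the centred log2 values on each array. It is therefore not the SE of the median difference itself. With median centring they were -0.029 for P450, -0.12 for endothelium, -0.0023 for ethanol and epoxide enzymes and 0.045 for peptide processing. Without a filter they were 0 for Schwann cells, for peptide processing and for amidated precursors, -0.076 for copper, 0.062 for ethanol and epoxide enzymes, 0.13 for lysophospholipids and -0.25 for white adipocytes. With the filter at the 75th percentile they were -0.012 for copper, -0.12 for cysteine, 0.039 for P450, -0.027 for endothelium, 0.13 for lysophospholipids, 0.031 for peptide processing and -0.35 for white adipocytes. That filter left 0 separated genes in the 6 lists of the enzymes with a median and 1 among white adipocyte markers. The floor at the median gave -0.090 for cysteine, with 0 separated genes. Averaging probe sets gave -0.032 for Schwann cells, -0.072 for endothelium, -0.033 for ethanol and epoxide enzymes, 0.19 for fibroblasts and 0.035 for peptide processing. The cause of these shifts was not tested.

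With arrays left out, medians ranged from -0.033 to 0.25 for Schwann cells, -0.20 to -0.083 for copper, -0.098 to 0.014 for cysteine, -0.091 to 0.016 for P450, -0.064 to -0.041 for endothelium and -0.030 to 0.036 for ethanol and epoxide enzymes. They ranged from 0.075 to 0.22 for fibroblasts, -0.036 to 0.076 for lysophospholipids, -0.17 to 0.070 for macrophages, 0.0092 to 0.096 for peptide processing, -0.38 to 0.020 for amidated precursors and -0.28 to -0.21 for white adipocytes. Separated genes then numbered 1 to 2 in the cysteine, lysophospholipid and peptide processing lists, 0 to 2 among amidated precursors and 0 to 1 among muscle markers.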
